A study of Caenorhabditis elegans with 3 samples.

Results

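The cct genes of the nematode Caenorhabditis elegans encode the subunits of the cytosolic chaperonin, also called CCT or TRiC. Of the 8 genes cct-1 to cct-8, 6 were named by the annotation of the array, by gene symbol, and each of these had 1 row of the table (cct-1, cct-2, cct-4, cct-5, cct-6 and cct-7). These 6 stand among 19293 genes and unnamed rows with a value on every array, and cct-3 and cct-8 were not analysed here. Transcripts were measured on 3 two-colour DNA microarrays, each comparing mRNA of 1 preparation of adult hermaphrodites, marked TP12 and "w/ emb 3" in the labels, with a mixed wild-type reference, marked "wt mixed reference mRNA". The strain of the adults, the makeup of the reference and whether the preparations were separate cultures are not given in the labels, so the p-values measure the spread between these preparations, which may be technical.

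The chaperonin is a barrel of stacked rings, each built from 8 related subunits that bind and hydrolyse ATP. A newly made protein enters the cavity, the built-in lid closes over it as ATP is used, and the protein folds inside. Its best known clients are actin and tubulin, together with many proteins made of WD40 repeats. Prefoldin, a separate chaperone, hands unfolded actin and tubulin to it. In C. elegans, loss of chaperonin subunits disturbs microtubules in the embryo and the growth of the gonad.

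The values are log2 ratios of the array's channels, deposited with each array centred near 0, so a value of 1 is a doubling relative to the centre of that array. The labels do not state the direction of the ratio. It is taken as likely adult over reference, from the channel order and from 4 marker lists. The medians of eggshell genes (log2 ratio 1.21) and yolk proteins (0.24) were above 0. Those of moulting genes (-0.69) and the major sperm proteins (-1.68) were below it. In the limma test described below, 9 of 10 eggshell genes passed as higher, and 7 of 12 moulting and 26 of 28 sperm genes as lower. The sperm list held only genes of the major sperm protein family, whose probes may share transcripts, which was not tested. Of the 3 yolk protein genes measured, 1 passed as higher and 2 did not pass. Values of the yolk genes on single arrays ran from -0.59 to 1.45, so the yolk list says little about the direction. Those lists are not independent evidence of their own direction, and "higher" and "lower" would change places under the opposite one. A ratio against the pool says nothing of how abundant one subunit's transcript is beside another's. Replicate 1 stood somewhat apart: across genes, which are not independent replicates, its values correlated with those of replicates 2 and 3 at Pearson's r = 0.686 and 0.679, while replicates 2 and 3 correlated at 0.895. The 3 arrays held 19904, 19832 and 19839 values, and their number limits the precision.

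Of the 6 chaperonin genes measured, 5 were higher in the adults and none was lower at an adjusted p of 0.05 (limma, Benjamini-Hochberg over all 19293). The share of all tested genes called higher was 14.8%, and 13.7% were called lower. The exception was cct-5, which was positive on every array but did not pass. The members' mean log2 ratios ran from 0.34 to 1.12, with a median of 0.95, against a median of 0.02 over all genes tested. All 6 members were above 0 on all 3 arrays, as were 30.1% of all genes. The means of 3 members, cct-1, cct-2 and cct-6, were 1 or more on the log2 scale, as were those of 3.90% of all genes. Sign-flipping the 3 values of a single gene gives a two-sided p of 0.25 at the least, so each call rests on the variance that limma shares across genes.

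**Figure D1:**
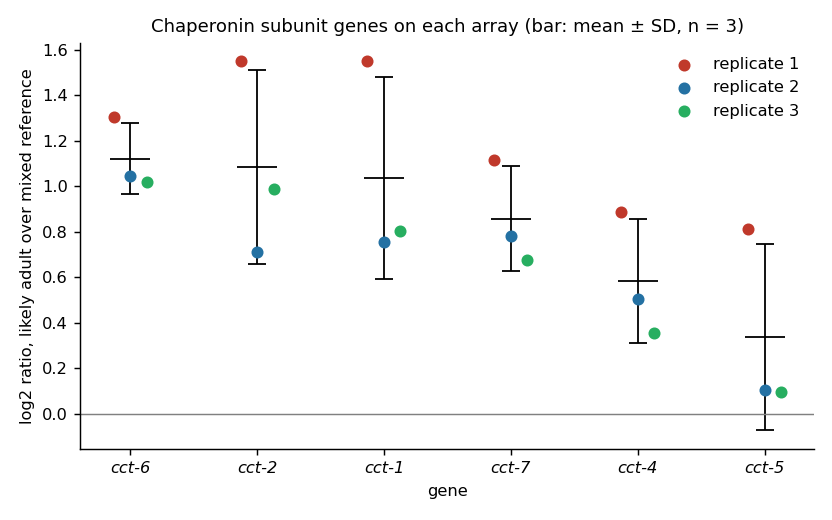
Log2 ratio (likely adult over mixed reference, vertical axis) of the 6 measured chaperonin genes, ordered by their mean. Coloured points are the 3 arrays, and the black bar and whiskers are the mean ± SD. All 18 points lie above 0, and replicate 1 is the highest point of every gene.

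In budding yeast the counterparts of cct-1, cct-2, cct-4 and cct-5 form the side of the ring that binds ATP tightly. The subunit gene cct-1 had log2 ratios of 1.55, 0.76 and 0.80 on the arrays of replicates 1, 2 and 3. Its mean was 1.04 ± 0.44 (SD, n = 3), or 2.05-fold higher, with an adjusted p of 0.00521 in limma. Replicate 1 was well above the other two arrays, which lay close together, and all 3 were above 0.

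The values of cct-2 were 1.55, 0.71 and 0.99 for replicates 1, 2 and 3. They averaged 1.08 ± 0.43 (SD, n = 3), or 2.12-fold higher, with an adjusted p of 0.00397 in limma. As for cct-1, replicate 1 was the highest array and no value came near 0.

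The gene cct-4 stood at 0.89, 0.51 and 0.36 on the 3 arrays. Its mean of 0.58 ± 0.27 (SD, n = 3), or 1.5-fold higher, was the smallest of the members that passed (adjusted p = 0.0264, limma). Without replicate 2 its mean was 0.62 and it did not pass (adjusted p = 0.0725, limma). In that fit 9.28% of all genes tested were called higher, against 14.8% with all 3 arrays. Over all 11 alternative settings the adjusted p of cct-4 ran from 0.00533 to 0.219.

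The gene cct-5 stood at 0.81 in replicate 1 and at 0.10 in both replicates 2 and 3. Its mean of 0.34 ± 0.41 (SD, n = 3), or 1.26-fold, did not pass (adjusted p = 0.211, limma). The 95% interval of its mean ran from -0.08 to 0.75. Without replicate 1 the mean was 0.10, with an adjusted p of 0.538, so most of its mean came from that array. The test does not show that cct-5 stood at the level of the reference, since its interval also holds a rise like that of cct-4.

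In yeast the counterparts of cct-6 and cct-7 lie on the side of the ring that binds ATP weakly. The values of cct-6 were 1.30, 1.05 and 1.02 for replicates 1, 2 and 3. It had the largest mean of the members, 1.12 ± 0.16 (SD, n = 3), or 2.18-fold higher, and also the smallest spread (adjusted p = 0.00126, limma). Its 3 arrays differed by less than those of any other member, and its 95% interval ran from 0.79 to 1.45.

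The values of cct-7 were 1.12, 0.78 and 0.67 on the 3 arrays. They averaged 0.86 ± 0.23 (SD, n = 3), or 1.81-fold higher, with an adjusted p of 0.00465 in limma. Replicates 2 and 3 lay close together and replicate 1 above them, as for cct-1, cct-5 and cct-6.

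Every measured member had its highest value in replicate 1. This held for 6 of 6 members and for 41.5% of all genes tested, and for 38.6% of the genes called higher. The median of the members was 1.21 on the array of replicate 1 and 0.73 and 0.74 on those of replicates 2 and 3, where the medians of all genes were 0.01, 0.03 and 0.01. The lowest member of each array was cct-5, at 0.81, 0.10 and 0.10. The highest was cct-2 in replicate 1, by only 0.00099 over cct-1, and cct-6 in replicates 2 and 3. Without replicate 1 the median of the members was 0.75, and the same 5 members passed, with means of 0.78 for cct-1, 0.85 for cct-2, 0.43 for cct-4, 1.03 for cct-6 and 0.73 for cct-7. The share of all genes called higher was then 22.2%. The part of replicate 1's quality in the size of these ratios was not tested.

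Among all 19293 genes and unnamed rows, the members lay in the upper part of the distribution. A smaller mean log2 ratio than that of cct-6 was found in 97.3% of genes, which placed cct-6 at rank 518 from the top. The shares were 97% for cct-2, 96.5% for cct-1, 94.1% for cct-7, 87.9% for cct-4 and 77.8% for cct-5. On single arrays the share below cct-5 fell from 91.5% in replicate 1 to 56.2% in replicate 2 and 59.4% in replicate 3. The share below cct-6 was 97.6%, 95.1% and 96.2% on the same arrays.

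**Figure D2:**
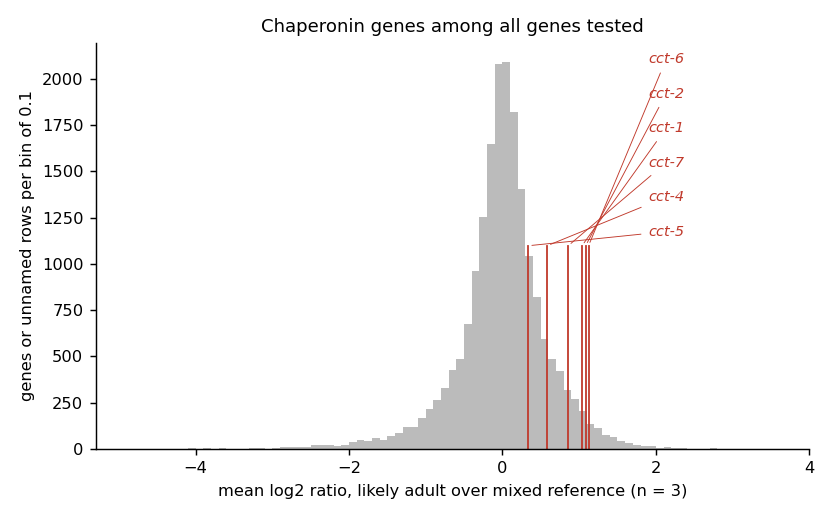
Histogram of the mean log2 ratio (likely adult over mixed reference, n = 3 arrays) of all 19293 genes and unnamed rows, in bins of 0.1, with the 6 chaperonin genes as red lines. The lines lie between 0.34 and 1.12, to the right of the centre of the histogram at 0.02.

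The members were next set against each other on the same array. In the order of their means, cct-6, cct-2, cct-1 and cct-7 came first, followed by cct-4 and cct-5. Neighbours among the first 4 did not differ beyond their spread. The difference of cct-6 and cct-2 was 0.04 ± 0.29, that of cct-2 and cct-1 was 0.05 ± 0.12, and that of cct-1 and cct-7 was 0.18 ± 0.23 (mean ± SD of the log2 difference, n = 3). The next steps were larger than their spread. The ratio of cct-7 exceeded that of cct-4 by 0.23, 0.27 and 0.32 on the 3 arrays, and that of cct-4 exceeded that of cct-5 by 0.08, 0.40 and 0.26.

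Of the 15 pairs of members, 10 differed by more than the SD of their differences, and these same 10 pairs had the same order on all 3 arrays. All 8 pairs that set cct-4 or cct-5 against one of the other 4 were among them. The steadiest of the large gaps was that of cct-1 and cct-5, at 0.74, 0.65 and 0.71 on the 3 arrays. The widest was that of cct-6 and cct-5, with a mean of 0.79 ± 0.25 (SD, n = 3), a 1.72-fold difference between their ratios. These differences were not tested, and each gene had 1 row, so a property of a gene's probe cannot be told apart from a difference between transcripts. With 32 blocks of consecutive rows centred separately, cct-7 stood at 0.98, above cct-2 at 0.85 and cct-1 at 0.86, so the order within the first 4 also depended on the centring.

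The 5 named genes outside the family whose 3 values lay closest to the mean profile of the members (1.20, 0.65 and 0.66) were smg-8, zipt-11, mob-4, math-33 and psf-1. Their root mean square difference from that profile ran from 0.02 to 0.06 on the log2 scale, out of 15106 genes considered. The closest, smg-8, stood at 1.21, 0.67 and 0.64 on the 3 arrays. A likeness over 3 arrays of 1 group rests on few values.

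The genes next to the members in the RefSeq gene table (assembly WBcel235, used for names and order) were examined on either side. In that table cct-1, cct-2 and cct-4 lie on chromosome II, cct-5 and cct-6 on chromosome III and cct-7 on chromosome V. Of 12 such neighbours, 8 were measured, of which 3 were higher, 1 was lower and 4 did not pass. Over all genes tested, 14.8% were called higher and 13.7% lower. Both neighbours of cct-6 were higher, at ratios near its own 1.12: ddx-23, named for a DEAD-box helicase, at 0.96 ± 0.08 and alh-9, of the aldehyde dehydrogenase family, at 1.14 ± 0.23 (SD, n = 3). Beside cct-1, the Dishevelled gene mig-5 of Wnt signalling was higher at 1.51 ± 0.72, whereas T05C12.8 on the other side stood at 0.09 ± 0.23 and did not pass. The 2 neighbours of cct-4 lay apart from it and from each other. The nucleostemin gene nst-1 stood at 0.20 ± 0.45 and did not pass, and nlp-55, named as a neuropeptide-like gene, was lower at -1.52 ± 0.42. The measured neighbours of cct-2 and cct-5 did not pass: mrpl-50, for a mitochondrial ribosomal protein, stood at 0.32 ± 0.23 beside cct-2, and F25F2.1 at 0.17 ± 0.52 beside cct-5.

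**Figure D3:**
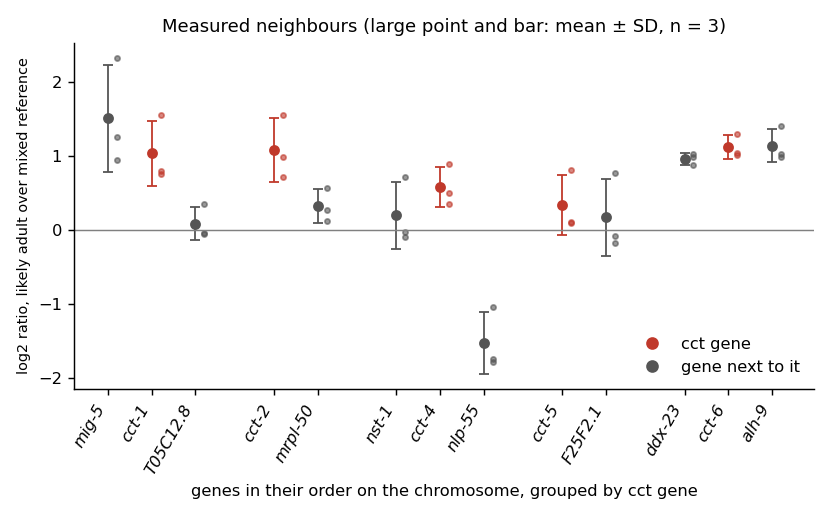
Log2 ratio (likely adult over mixed reference, vertical axis) of 5 chaperonin genes (red) and their measured neighbours in the gene table (grey). Large points with whiskers are the mean ± SD over 3 arrays and small points are the arrays. The genes on both sides of cct-6 lie near it, and nlp-55 beside cct-4 lies at -1.52. No neighbour of cct-7 was measured.

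Of 5 measured genes of prefoldin, which delivers clients to the chaperonin, 1 was higher, pfd-3 at 0.67 ± 0.25 (SD, n = 3, adjusted p = 0.0137, limma), and their median was 0.01 against 0.95 for the cct genes. The others did not pass, with pfd-1 at 0.25 ± 0.16, pfd-5 at 0.01 ± 0.12, pfd-4 at -0.12 ± 0.50 and pfd-6 at -0.41 ± 0.04. The share called higher over all genes tested was 14.8%. The value of pfd-6 was negative on all 3 arrays (adjusted p = 0.0546), and it passed as lower without replicate 1 (-0.40, adjusted p = 0.0285). Leaving out replicate 1 also brought pfd-4 to -0.41 and past the threshold as lower (adjusted p = 0.0250, limma). In that fit 3881 of all 19302 genes tested were called lower, against 2647 of 19293 with all 3 arrays. Of the 2 rows of pfd-3, which were averaged, one alone passed at 0.78 and the other did not at 0.57 (adjusted p = 0.00489 and 0.0553). Without replicate 2 or 3 pfd-3 did not pass, at 0.58 and 0.63, in fits where 9.28% and 9.83% of all genes tested were called higher. The value of pfd-5 changed sign without replicate 1 or 2, at -0.02 in both. The difference between the lists was not tested.

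Tubulin, a main client, is finished after the chaperonin by the tubulin cofactors. Of 4 such genes measured, 2 were higher: the cofactor B gene tbcb-1 at 0.70 ± 0.30 and evl-20, for an Arl2-type GTPase that works with the cofactors, at 0.60 ± 0.41 (SD, n = 3). The cofactor D and E genes tbcd-1 and tbce-1 stood at 0.47 ± 0.35 and 0.24 ± 0.74 and did not pass. Without replicate 1 all 4 passed, with tbcd-1 and tbce-1 both at 0.67 and evl-20 at 0.37. In that fit 22.2% of all genes tested were called higher, against 14.8% with all 3 arrays. Without replicate 2 or 3, tbce-1 stood at 0.00059 and 0.065 and tbcd-1 at 0.37 in both, and neither passed. Of 16 tubulin genes, 5 were higher and 1 lower, against 14.8% and 13.7% of all genes tested. The median of the list was 0.23. The higher ones included tba-1, tbb-1 and tbb-2, the isotypes that build most microtubules of the early embryo, at 1.00 ± 0.12, 1.13 ± 0.19 and 1.11 ± 0.26 (SD, n = 3), close to those of cct-1, cct-2 and cct-6. The other early embryonic isotype tba-2 stood at 1.19 ± 1.05. Its 2 rows disagreed in replicate 3, at -0.88 and 1.29, and the first of them had no value in replicate 2. The other row alone stood at 1.74, 1.06 and 1.29, with a mean of 1.37 (adjusted p = 0.00098, limma). With the rows averaged, the mean of tba-2 without replicate 1 was 0.63. The fifth was ben-1, the target of benzimidazole drugs, at 0.68 ± 0.20, and tba-8 was lower at -1.0 ± 0.44. The tubulins of the touch receptor neurons, mec-7 and mec-12, stood at 0.44 ± 0.41 and -0.24 ± 0.48 and did not pass. The other 8 tubulin genes, which did not pass, ran from -0.27 for tba-9 to 0.44 for tbb-4.

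Of 5 actin genes, act-2 was higher at 0.62 ± 0.31 (SD, n = 3), where 14.8% of all genes tested were called higher. The other actin genes did not pass, at means from 0.41 for act-4 to 0.55 for act-1. All 5 had their highest value in replicate 1, as did the cct genes and 41.5% of all genes tested. Without replicate 2 act-1 and act-3 passed as well, at 0.83 and 0.71. Without replicate 1 act-1, act-3 and act-4 stood at 0.19, 0.19 and 0.17, and act-5 at 0.29, and none of these passed. Actin genes are similar in sequence, so their probes may share transcripts, which was not tested. Of 4 genes of WD40 proteins from families that the chaperonin folds in yeast or mammals, fzy-1, the Cdc20 activator of the anaphase-promoting complex, was higher at 1.54 ± 0.29, above every cct gene. Its relative fzr-1 stood at 0.02 ± 0.30 and the G protein beta subunit genes gpb-1 and gpb-2 at 0.30 ± 0.13 and 0.30 ± 0.05, and none of these passed. Without replicate 1 gpb-1 passed at 0.36, where 22.2% of all genes tested were called higher, against 14.8% with all 3 arrays. Without replicate 2 or 3 fzr-1 was negative, at -0.09 and -0.04.

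**Figure D4:**
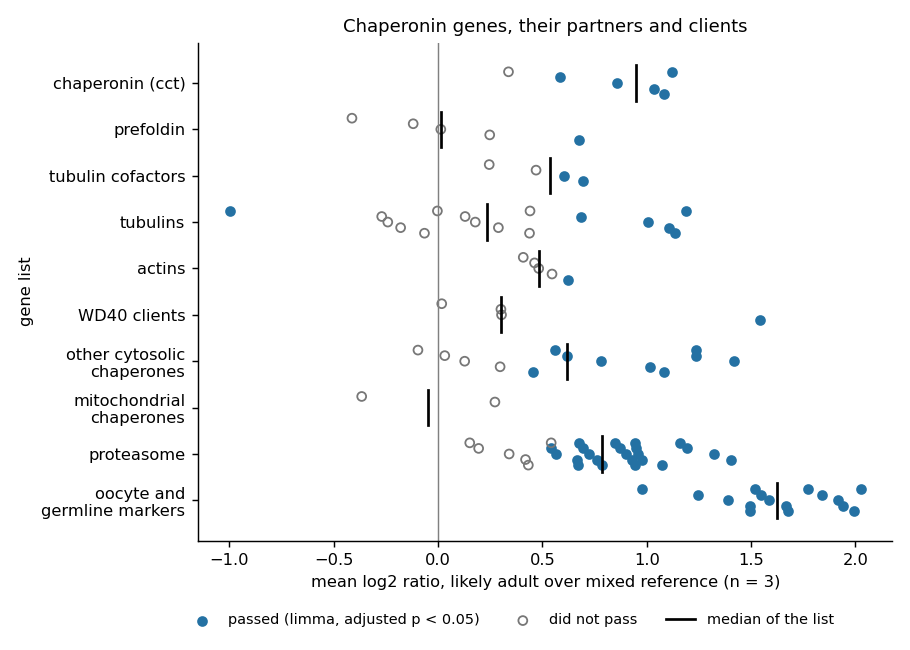
Mean log2 ratio (likely adult over mixed reference, n = 3 arrays, horizontal axis) of each measured gene of 10 lists, with filled points for genes that passed in limma, open points for those that did not, and a black bar at the median of the list. The cct genes have a median of 0.95, the prefoldin genes of 0.01, and the oocyte and germline markers of 1.63.

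The list of other cytosolic chaperones and their partners also held the transcription factor gene hsf-1. Of the 13 genes measured on that list, 9 were higher and none was lower, with a median of 0.62. Over all genes tested, 14.8% were called higher and 13.7% lower. The Hsp70 partner hsp-110 and the Hsp90 partners sti-1 and cdc-37 stood at 1.42 ± 0.31, 1.23 ± 0.22 and 1.24 ± 0.17 (SD, n = 3), above the mean of every cct gene. The constitutive Hsp70 gene hsp-1, at 1.08 ± 0.42, was close to cct-2. The J-domain genes dnj-13 and dnj-19 were higher at 1.01 ± 0.31 and 0.78 ± 0.12, and bag-1, hsf-1, for the heat shock transcription factor, and the Hsp90 gene hsp-90 at 0.62 ± 0.08, 0.56 ± 0.11 and 0.46 ± 0.06. These last 3 did not pass without replicate 2 (0.59, 0.51 and 0.44) or without replicate 3 (0.67, 0.57 and 0.43). In those fits 9.28% and 9.83% of all genes tested were called higher. The genes unc-45, dnj-12, chn-1 and icd-1 did not pass, at 0.30 ± 0.47, 0.13 ± 0.15, 0.03 ± 0.40 and -0.10 ± 0.17. The value of unc-45 was 0.45 without replicate 1 and 0.03 without replicate 2, and it passed in neither. The mitochondrial chaperone genes hsp-6 and dnj-21 stood at 0.27 ± 0.20 and -0.37 ± 0.45 and did not pass. Of 29 proteasome genes, another large complex of protein turnover, 23 were higher, with a median of 0.78. Their ratios ran from 0.15 to 1.41, a range that holds those of all 6 cct genes. Of the 29, 15 had their highest value in replicate 1, as did 41.5% of all genes tested.

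The adults were bulk samples, in which more cells of a type cannot be told apart from more RNA per cell. The mark "w/ emb 3" in their labels may mean that embryos were included, whose RNA could not be told apart from that of adult tissue. Oocyte and germline markers, such as the Pumilio-family gene puf-7 and the yolk receptor gene rme-2, were higher in 16 of 16 genes, with a median of 1.63 and values on single arrays from 0.79 to 2.19. Their medians were 1.79, 1.69 and 1.67 on the 3 arrays, while those of the cct genes were 1.21, 0.73 and 0.74. Neuronal markers were lower in 8 of 13 genes and higher in none (median -1.26). Muscle markers were lower in 4 of 11 and higher in none (median -0.39). Intestinal markers were higher in 2 of 8 and lower in 2 (median 0.05). Over all genes tested, 14.8% were called higher and 13.7% lower. The part of tissue makeup in the cct ratios was not tested.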

How the data were processed

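The members and gene lists were chosen with earlier results of these data known. The log2 ratios deposited by the authors, 1 per row and array, come from a table of 20000 rows, made by steps (scanner, dyes, background correction, normalisation) not given in the sources used here. Base 2 was inferred because it turned every value into a ratio with 3 decimals (59554 checked, ratios under 10, tolerance 0.01 of the last decimal). No spot intensities were used, and background or saturation would compress the ratios. Rows were named by the platform annotation of 2007 (15655 with 1 symbol, 198 with several, 4147 with none) and 15569 rows were matched to RefSeq WBcel235 by gene identifier. The list name daf-21 was read as hsp-90. Rows of 1 symbol were averaged. The mean of 3 arrays was tested against 0 with limma 3.58.1 in R 4.3.3 (lmFit, eBayes, two-sided, Benjamini-Hochberg, threshold 0.05). The method was tested on independent normal values simulated from its own fitted variance prior, which does not test that model on these arrays. The prior had 5.86 degrees of freedom. The reference's own spread was not measured. The table held 0 columns of no sample. Named were all measured members of the cct, prefoldin, tubulin, cofactor, actin, WD40 and other chaperone lists, the 5 most similar genes, the neighbours, and up to 2 genes with the smallest p of proteasome and marker lists; range ends outside this rule are given as values. Alternatives were array centring, quantile normalisation, centring of 32 blocks of rows, variance model, array weights, missing-value filter, single rows and leaving out each replicate.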

Additional observations from a re-analysis of the deposited data

How the results depend on the processing

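Under 9 of 11 alternatives the same 5 cct genes passed as higher. The exceptions were the fit without replicate 2, where 4 passed, and the fit without moderation of the variance. Leaving out 1 replicate moved the mean of cct-4 between 0.43 and 0.70, and cct-5 passed under none of the 11. Without moderation, cct-1, cct-2, cct-4, cct-6 and cct-7 kept their means of 1.04, 1.08, 0.58, 1.12 and 0.86 and had adjusted p-values from 0.125 to 0.219. In that limma fit 0 genes passed in either direction, in every list and over all genes, with 4903 genes and 3 cct genes at an unadjusted p under 0.05. It estimates each gene's variance from 3 values.

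Over all genes, leaving out 1 replicate gave 1796 to 4276 higher and 1687 to 3881 lower genes, and array weights (0.28, 1.12 and 3.16 for replicates 1, 2 and 3) gave 4874 and 4413. Leave-one-out counts ran from 0 to 1 higher and 0 to 2 lower for prefoldin, 2 to 4 higher for tubulin cofactors, 1 to 3 for actins and 1 to 2 for WD40 genes. Array weights gave 2 lower prefoldin genes, 4 higher cofactor genes, 2 lower tubulins, 4 higher actins and 3 higher WD40 genes. With arrays centred on the median, with quantile normalisation and with 32 blocks centred, 1 prefoldin gene, pfd-6, was lower each time. With rows tested singly, counting for each gene its row with the smaller absolute mean, 0 prefoldin genes were higher. The causes were not tested.

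Some genes near 0 that had not passed changed sign. The value of pfd-5 was -0.0061 with median centring, -0.00084 with quantile normalisation, -0.066 with blocks centred and -0.060 with array weights. That of fzr-1 was -0.0017 with median centring and -0.075 with blocks. For tba-6 it was 0.015 with quantile normalisation and 0.094 with array weights, which also gave 0.0092 for tba-5, -0.0059 for tba-7 and 0.0053 for icd-1. Of the neighbours, T05C12.8 stood at -0.074 with blocks and -0.021 with weights, and F25F2.1 at -0.00033 and -0.089. Leaving out 1 replicate gave ranges across 0 for pfd-4 (-0.41 to 0.046), pfd-5 (-0.024 to 0.082), tba-5 (-0.17 to 0.070), tba-6 (-0.092 to 0.14), tba-7 (-0.0082 to 0.22), mec-12 (-0.45 to 0.020), fzr-1 (-0.095 to 0.19), chn-1 (-0.11 to 0.26), T05C12.8 (-0.044 to 0.15), nst-1 (-0.061 to 0.35) and F25F2.1 (-0.12 to 0.35). No paired analysis was possible because the arrays form 1 group.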
